A study of Mus musculus with 23 samples.

Results

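The genes described here are 31 genes of the yolk sac and visceral endoderm, taken by gene symbol from the annotation of the array's probes. Of these, 30 have a probe that names that gene alone, and 29 passed the filter on empty and dim values, beside 12651 named genes that passed it in all. Kng1, the precursor of bradykinin, lies only on a probe shared with another gene and was not used, and F2, prothrombin, was too dim to test. The levels are intensities of single genes in pools of whole embryos, in the arrays' relative units after normalization, so a difference between pools can come from fewer cells of a type or from less RNA per cell, which cannot be told apart in bulk samples.

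Transcripts were measured on CodeLink 1-colour arrays in mouse embryos of day 8.5 that came from matings of p53 heterozygous mice. They were held for 10 minutes in water of 38 °C, the control, or of 43 °C, the heat treatment, then genotyped and pooled, 3 to 7 to a pool, with embryos of their own genotype and bath. The 6 groups are p53 +/+ (wildtype), p53 +/- (heterozygous) and p53 -/- (null) embryos from the control bath, with 4 pools each, and the same genotypes from the hot bath, with 4, 4 and 3 pools. The labels call the material whole embryo and the pools biological replicates, named A to D, while dissection, strain, litters and the time between bath and collection are not given in the sources.

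At this stage the embryo lies inside the visceral yolk sac, whose outer layer is visceral endoderm, an epithelium with a brush border. Before the liver takes over, this epithelium takes up maternal proteins through the receptors cubilin, megalin and amnionless, and it makes and secretes plasma proteins such as alpha-fetoprotein, transthyretin and transferrin, the fibrinogen chains, and the apolipoproteins that carry lipid to the embryo. Hnf4a is a transcription factor that these secretory genes depend on there. Some of the genes, among them Dab2, Lrp2, Ihh, Trf, Ctsz, Cited1 and Maob, are also known from tissues of the embryo proper.

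Every array held RNA of these genes at levels that were read, with 9 of 348 control values of the 29 genes empty and no heat value coded as missing. Summed over the 23 genes with a value on all arrays, intensity ran from 211 in wildtype heat C to 549.7 in heterozygous heat B. Markers of the embryo proper were read in all pools too, with 15 of 16 neural tube genes and 13 of 16 heart muscle genes tested. No tested probe names Trp53, so the genotypes were not checked on the arrays. The empty cells occur in control columns only, and bath and any difference in array handling cannot be told apart.

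To set the pools side by side, each gene's log2 level was taken relative to the average of its 6 group means, and the mean over the 29 genes was called the pool's score. The score was 0.41 in wildtype control B and 0.39 in D, against -0.12 in A and -0.02 in C. In heterozygous control pools A to D it was 0.16, 0.00, -0.41 and -0.54, and in null control pools 0.20, -0.62, -0.04 and -0.14. Thus every control group held pools on either side of 0, and the lowest control pool was null control B.

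Among the heat pools the wildtype group was split, with 0.33 in pool A and -0.64, -0.70 and -0.45 in B, C and D. All heterozygous heat pools lay above 0, at 0.25, 0.69, 0.10 and 0.36. Null heat pools measured 0.32, 0.44 and -0.18. The distance from the lowest to the highest pool was 1.39 on the log2 scale, and it lay between heat pools of different genotype, wildtype heat C and heterozygous heat B. Group means were 0.16 ± 0.27 for wildtype control (SD, n = 4), -0.20 ± 0.33 for heterozygous control, -0.15 ± 0.34 for null control, -0.37 ± 0.48 for wildtype heat, 0.35 ± 0.25 for heterozygous heat and 0.19 ± 0.33 for null heat (n = 3). The SD within a group was 0.25 to 0.48, and the ranges of pool scores of the 6 groups all overlapped one another.

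**Figure D1:**
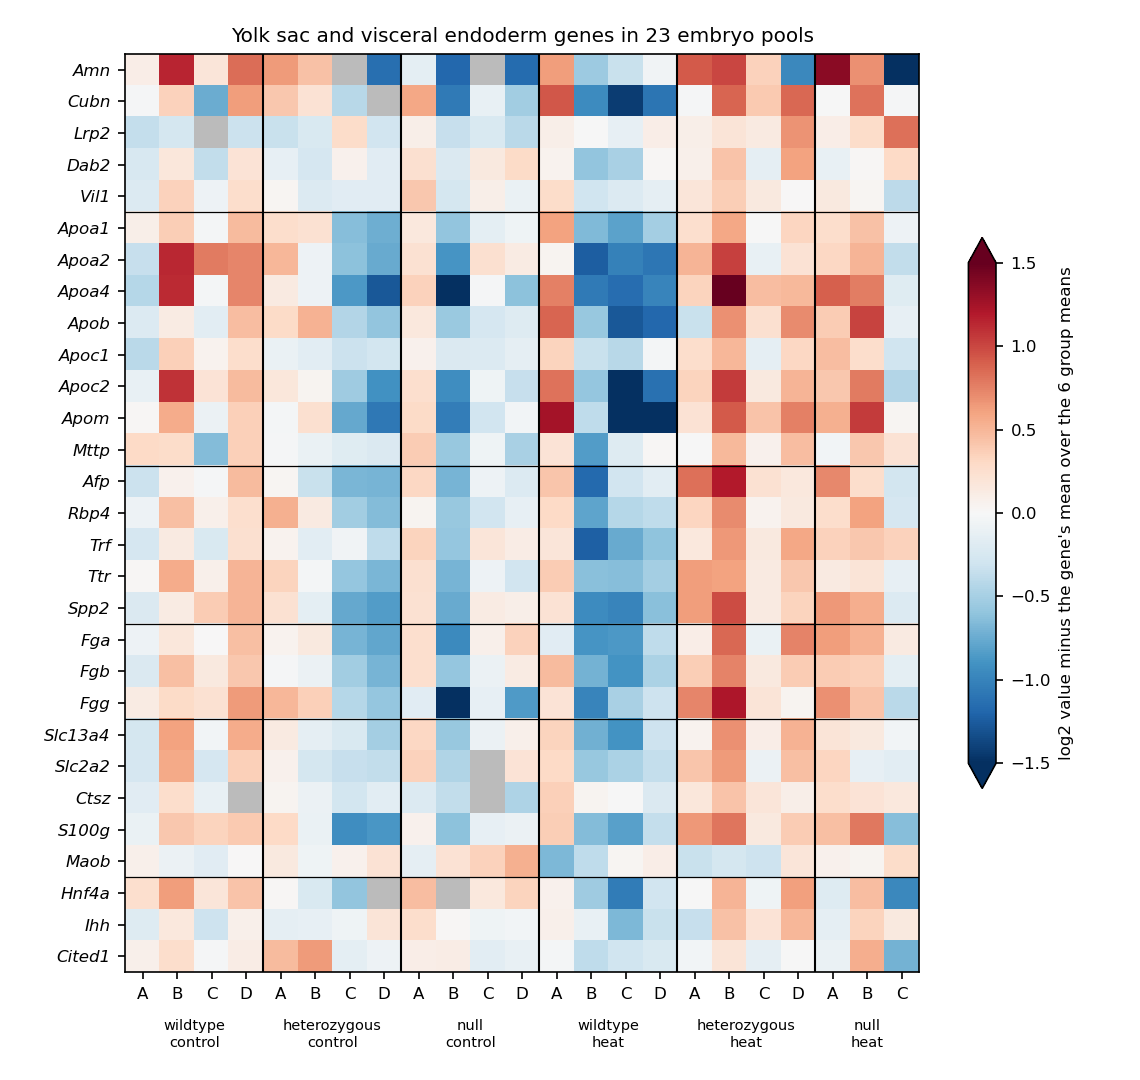
Log2 level of each of the 29 genes (lines of the grid, ordered by role) in each of the 23 pools (columns, by group and letter), relative to the average of the gene's 6 group means; colours end at the limits of the colour bar and grey cells hold no value. Wildtype heat A stands against wildtype heat B to D across most genes, and null control B and heterozygous control C and D are low across most genes.

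The pools stood apart gene by gene, not only in the mean. Wildtype heat A was the highest of its group for 27 of the 29 genes, whereas it was the highest for 17.4% of the 12645 genes with values in all of that group's pools. Heterozygous heat B was the highest of its group for 22 of 29 (18.0% of all genes), and null control A for 19 of the 25 with a value in every pool (24.5% of all genes). Null control B was the lowest of its group for 21 of 25 (26.5% of all genes), and null heat C for 23 of 29 (27.6%). In the heterozygous control group pool A was the highest for 18 of 26 and pool D the lowest for 17 of 26, and in the wildtype control group pool B was the highest for 16 of 27 and pool A the lowest for 17 of 27. Over all 23 pools, heterozygous heat B held the highest value of 14 genes, and wildtype heat C and B held the lowest values of 11 and 7. The shares of all genes are not given for these counts, which therefore do not set the 29 genes apart from others.

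**Figure D2:**
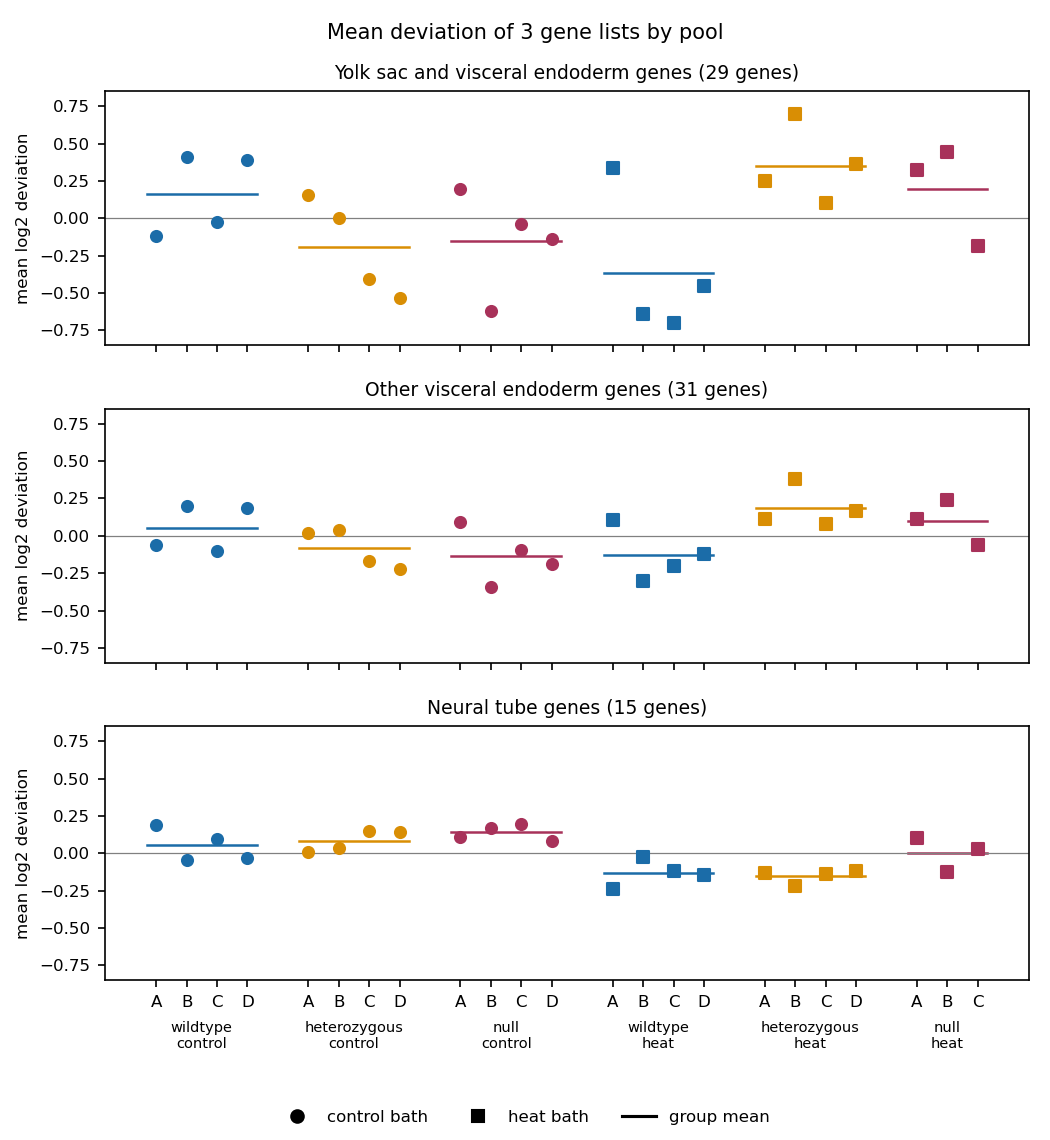
Score of each pool (mean log2 level of a gene list relative to the average of the 6 group means) for the 29 genes, for other visceral endoderm genes and for neural tube genes, by group; each point is 1 pool and each bar a group mean. Scores of the 29 genes run from -0.70 to 0.69, wider than those of the neural tube list, and within a group the pools keep nearly the same order for the list of other visceral endoderm genes.

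The proteins secreted into serum came first among the roles. Afp, alpha-fetoprotein, is the main serum protein of the yolk sac and the fetal liver. In control pools A to D, Afp measured 15.9, 20.9, 19.7 and 27.6 in wildtype, 20.3, 15.8, 12.3 and 12.3 in heterozygous and 24.7, 12.2, 18.9 and 17.2 in null pools. In heat pools it was 26.6, 8.84, 16.2 and 17.9 in wildtype, 35.3, 45.5, 23.4 and 22.3 in heterozygous and 32.8, 23.9 and 16.5 in null pools. Heterozygous heat B was the highest and wildtype heat B the lowest of all 23 pools, and the heterozygous heat pools lay above all heterozygous control pools, while the other groups overlapped.

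Ttr, transthyretin, carries thyroid hormone and, with Rbp4, retinol. Control intensities of Ttr were 70.8, 103, 74.03 and 99.4 in wildtype, 88.1, 68.6, 46.8 and 43.7 in heterozygous and 82.8, 43.1, 66.5 and 57.4 in null pools. With heat, Ttr measured 91.4, 45.3, 44.9 and 49.2 in wildtype, 108, 107, 76.6 and 92.6 in heterozygous and 76.97, 79.8 and 64.1 in null pools. Wildtype heat A was at 91.4 where the other wildtype heat pools were at 44.9 to 49.2, so that the wildtype heat group overlapped its controls only through pool A. Rbp4, the retinol carrier, ran from 21.5 (wildtype heat B) to 60.97 (heterozygous heat B).

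Trf, transferrin, delivers iron. Trf was read at 3.12, 4.09, 3.18 and 4.40 in wildtype, 3.87, 3.34, 3.57 and 2.86 in heterozygous and 4.68, 2.50, 4.21 and 4.02 in null pools in the control bath. After the hot bath Trf stood at 4.22, 1.59, 2.21 and 2.45 in wildtype, 4.16, 5.82, 4.14 and 5.57 in heterozygous and 4.71, 4.93 and 4.75 in null pools. Heterozygous and null heat pools each lay above all control pools of their genotype, and the 3 null heat pools, at 4.71 to 4.93, lay above all 4 wildtype heat pools. Spp2, a secreted phosphoprotein, measured 5.13, 6.51, 7.78 and 8.49 in wildtype, 7.02, 5.42, 3.51 and 3.34 in heterozygous and 7.02, 3.54, 6.51 and 6.34 in null pools in control pools. Spp2 heat values were 6.95, 3.10, 3.02 and 3.87 in wildtype, 9.20, 11.8, 6.57 and 7.54 in heterozygous and 9.38, 8.72 and 5.19 in null pools. Its heat and control groups overlapped within each genotype.

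Apoa1, the main protein of high-density lipoprotein, measured 51.4, 62.5, 47.3 and 67.3 in wildtype, 58.1, 56.9, 31.04 and 29.1 in heterozygous and 54.01, 32.1, 43.8 and 46.2 in null pools after the control bath. After heat the Apoa1 levels were 73.7, 30.5, 27.8 and 33.9 in wildtype, 57.7, 72.3, 48.2 and 60.4 in heterozygous and 58.3, 65.7 and 45.9 in null pools. Wildtype heat A held the highest Apoa1 value of all pools and wildtype heat C the lowest, a 2.66-fold range inside 1 group. Apoa2, the second protein of that particle, was at 4.15, 11.6, 9.10 and 8.83 in wildtype, 7.45, 5.01, 3.45 and 3.14 in heterozygous and 6.19, 2.86, 6.27 and 5.77 in null pools in control pools. Heat pools had Apoa2 at 5.46, 2.26, 2.63 and 2.50 in wildtype, 7.52, 10.7, 4.90 and 6.17 in heterozygous and 6.55, 7.52 and 4.10 in null pools. Wildtype heat B, C and D were below every other pool of the series, and the wildtype groups overlapped because heat A, at 5.46, was above control A, at 4.15.

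Apom, a carrier of sphingosine 1-phosphate, spread over the widest range in the wildtype heat group, followed by Cubn (5.10-fold) and by Apoc2, the activator of lipoprotein lipase. Apoc2 had control values of 29.05, 66.5, 36.1 and 43.5 in wildtype, 35.2, 32.2, 21.7 and 16.6 in heterozygous and 37.4, 16.4, 30.04 and 24.6 in null pools. Its heat values were 55.03, 21.01, 11.1 and 14.4 in wildtype, 39.4, 64.8, 34.7 and 44.8 in heterozygous and 41.3, 53.9 and 23.1 in null pools. Wildtype heat A was 4.96-fold above wildtype heat C. Control pools held Apom at 6.10, 8.89, 5.66 and 7.71 in wildtype, 5.90, 7.12, 3.55 and 2.86 in heterozygous and 7.33, 2.94, 4.95 and 5.86 in null pools. Heat pools held it at 14.3, 4.65, 1.68 and 1.97 in wildtype, 7.03, 11.4, 8.11 and 10.2 in heterozygous and 8.69, 12.5 and 6.14 in null pools. The range inside the wildtype heat group was 8.54-fold for Apom, against 1.57-fold in the wildtype control group, and its top pool was the highest of the series.

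Apoa4, an apolipoprotein of intestine and yolk sac, measured 1.25, 3.65, 1.65 and 2.78 in wildtype, 1.85, 1.59, 0.924 and 0.696 in heterozygous and 2.13, 0.594, 1.66 and 1.09 in null pools in control pools. In the hot bath groups Apoa4 was 2.84, 0.805, 0.760 and 0.849 in wildtype, 2.12, 5.24, 2.32 and 2.36 in heterozygous and 3.14, 2.85 and 1.48 in null pools. Heterozygous heat B and wildtype heat A stood clear of the other pools of their groups, and all heterozygous heat pools lay above all heterozygous control pools. Apob, the protein on which lipoproteins are built, ran from 0.341 (wildtype heat C) to 1.67 (null heat B), Apoc1 from 2.22 (wildtype heat C) to 4.18 (heterozygous heat B), and Mttp, which loads lipid onto Apob, from 0.617 (wildtype heat B) to 1.54 (heterozygous heat B). For each of these 3 genes the lowest pool of the series was a wildtype heat pool.

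Fga, Fgb and Fgg encode the 3 chains of fibrinogen. Fgb intensities were 6.12, 9.72, 7.86 and 9.40 in wildtype, 6.99, 6.67, 4.93 and 4.36 in heterozygous and 8.45, 4.73, 6.65 and 7.72 in null pools in the control bath. They were 9.83, 4.34, 3.81 and 5.10 in wildtype, 9.14, 11.8, 7.86 and 9.21 in heterozygous and 9.24, 9.05 and 6.41 in null pools in the hot bath. Every heterozygous heat pool lay above every heterozygous control pool, and wildtype heat A lay above all wildtype control pools while B, C and D lay below them. Control values of Fgg were 1.22, 1.37, 1.32 and 1.75 in wildtype, 1.59, 1.44, 0.831 and 0.753 in heterozygous and 1.002, 0.383, 1.03 and 0.622 in null pools, with null control B at the floor set for dim values. Heat values of Fgg were 1.30, 0.567, 0.802 and 0.905 in wildtype, 1.87, 2.61, 1.29 and 1.16 in heterozygous and 1.80, 1.51 and 0.847 in null pools. Null control pools lay below all wildtype control pools for Fgg. Fga ranged from 0.460 (null control B) to 1.62 (heterozygous heat B), and all wildtype heat pools were below all wildtype control pools.

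Cubn (cubilin), Amn (amnionless) and Lrp2 (megalin) form the uptake complex of the brush border. Cubn measured 2.93, 3.79, 1.77 and 4.60 in wildtype, 3.93, 3.45 and 2.23 in pools A, B and C in heterozygous and 4.43, 1.43, 2.76 and 2.07 in null pools after the control bath. It was 5.67, 1.55, 1.11 and 1.39 in wildtype, 2.93, 5.43, 3.90 and 5.42 in heterozygous and 2.96, 5.25 and 2.94 in null pools after heat. Wildtype heat A held the highest value of the series, while wildtype heat C, B and D were among the lowest 4. Amn lay near the floor set for dim values, at 0.930, 1.91, 0.982 and 1.55 in wildtype, 1.35, 1.18 and 0.394 in pools A, B and D in heterozygous and 0.786, 0.383 and 0.389 in pools A, B and D in null pools in the control bath. The hot bath gave Amn at 1.34, 0.596, 0.689 and 0.838 in wildtype, 1.63, 1.74, 1.10 and 0.445 in heterozygous and 2.21, 1.39 and 0.222 in null pools. Its values in heterozygous control D, null control B and D and null heat C are at the floor, so its lowest levels are bounds and not readings.

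Lrp2 followed a course of its own. Control pools read 0.592, 0.629 and 0.605 in pools A, B and D in wildtype, 0.603, 0.648, 0.913 and 0.620 in heterozygous and 0.803, 0.596, 0.645 and 0.572 in null pools for Lrp2. Heat pools read 0.806, 0.752, 0.697 and 0.810 in wildtype, 0.804, 0.867, 0.831 and 1.21 in heterozygous and 0.811, 0.917 and 1.34 in null pools. The wildtype heat pools lay above the wildtype control pools and null heat above null control, and pool A of the wildtype heat group did not stand out. Dab2, an adaptor for endocytosis, ran from 8.89 (wildtype heat B) to 20.4 (heterozygous heat D), and Vil1, villin of the microvilli, from 1.49 (null heat C) to 2.60 (null control A).

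Among transporters and enzymes, Ctsz, a lysosomal cathepsin, varied least. Control intensities of Ctsz were 15.4, 20.8 and 16.003 in pools A, B and C in wildtype, 17.9, 16.3, 14.3 and 15.5 in heterozygous and 15.1, 13.4 and 12.5 in pools A, B and D in null pools. In heat pools Ctsz was 22.2, 17.7, 17.2 and 14.8 in wildtype, 19.5, 23.4, 19.6 and 18.5 in heterozygous and 20.8, 19.9 and 19.2 in null pools. Heat pools lay above control pools in the heterozygous and in the null groups, and in neither did a single pool stand apart. S100g, a calcium-binding protein of absorptive epithelium, measured 28.3, 40.1, 38.4 and 39.8 in wildtype, 37.4, 28.4, 15.9 and 16.7 in heterozygous and 31.9, 19.9, 27.9 and 28.5 in null pools in control pools. Heat values of S100g were 39.4, 19.4, 17.3 and 23.7 in wildtype, 47.8, 53.2, 33.6 and 39.6 in heterozygous and 41.5, 52.6 and 19.6 in null pools. Heterozygous control C and D, null control B, wildtype heat B and C and null heat C had the 6 lowest levels, all at 19.9 or less. Slc13a4, a sulfate transporter, ran from 5.55 (wildtype heat C) to 16.6 (heterozygous heat B) on its brighter probe, and Slc2a2, a glucose transporter, from 2.08 (wildtype heat B) to 4.79 (heterozygous heat B).

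Maob, monoamine oxidase B, ran against the others. Control pools had Maob at 3.17, 2.82, 2.67 and 3.004 in wildtype, 3.30, 2.85, 3.14 and 3.47 in heterozygous and 2.72, 3.47, 3.81 and 4.34 in null pools. Heat pools had it at 1.87, 2.31, 3.06 and 3.21 in wildtype, 2.37, 2.50, 2.41 and 3.41 in heterozygous and 3.12, 3.08 and 3.62 in null pools. Wildtype heat A, the highest pool of its group for 27 of the 29 genes, held the lowest Maob value of all 23 pools. Heterozygous heat B, the pool with the highest score of the series, had Maob at 2.50.

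The regulators and signals came last. Hnf4a measured 0.720, 0.937, 0.690 and 0.816 in wildtype, 0.617, 0.518 and 0.404 in pools A, B and C in heterozygous and 0.835, 0.678 and 0.762 in pools A, C and D in null pools in the control bath, with heterozygous control C at the floor. It measured 0.636, 0.420, 0.293 and 0.497 in wildtype, 0.607, 0.862, 0.582 and 0.927 in heterozygous and 0.531, 0.839 and 0.310 in null pools in the hot bath. All wildtype heat pools were below all wildtype control pools, and pool A was again the highest of the wildtype heat group. Cited1, a coactivator of transcription, ran from 20.02 (null heat C) to 51.1 (heterozygous control B) and was also lower in every wildtype heat pool than in every wildtype control pool. Ihh, Indian hedgehog, a signal from visceral endoderm to the blood-forming mesoderm, ran from 0.535 (wildtype heat C) to 1.21 (heterozygous heat D).

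**Figure D3:**
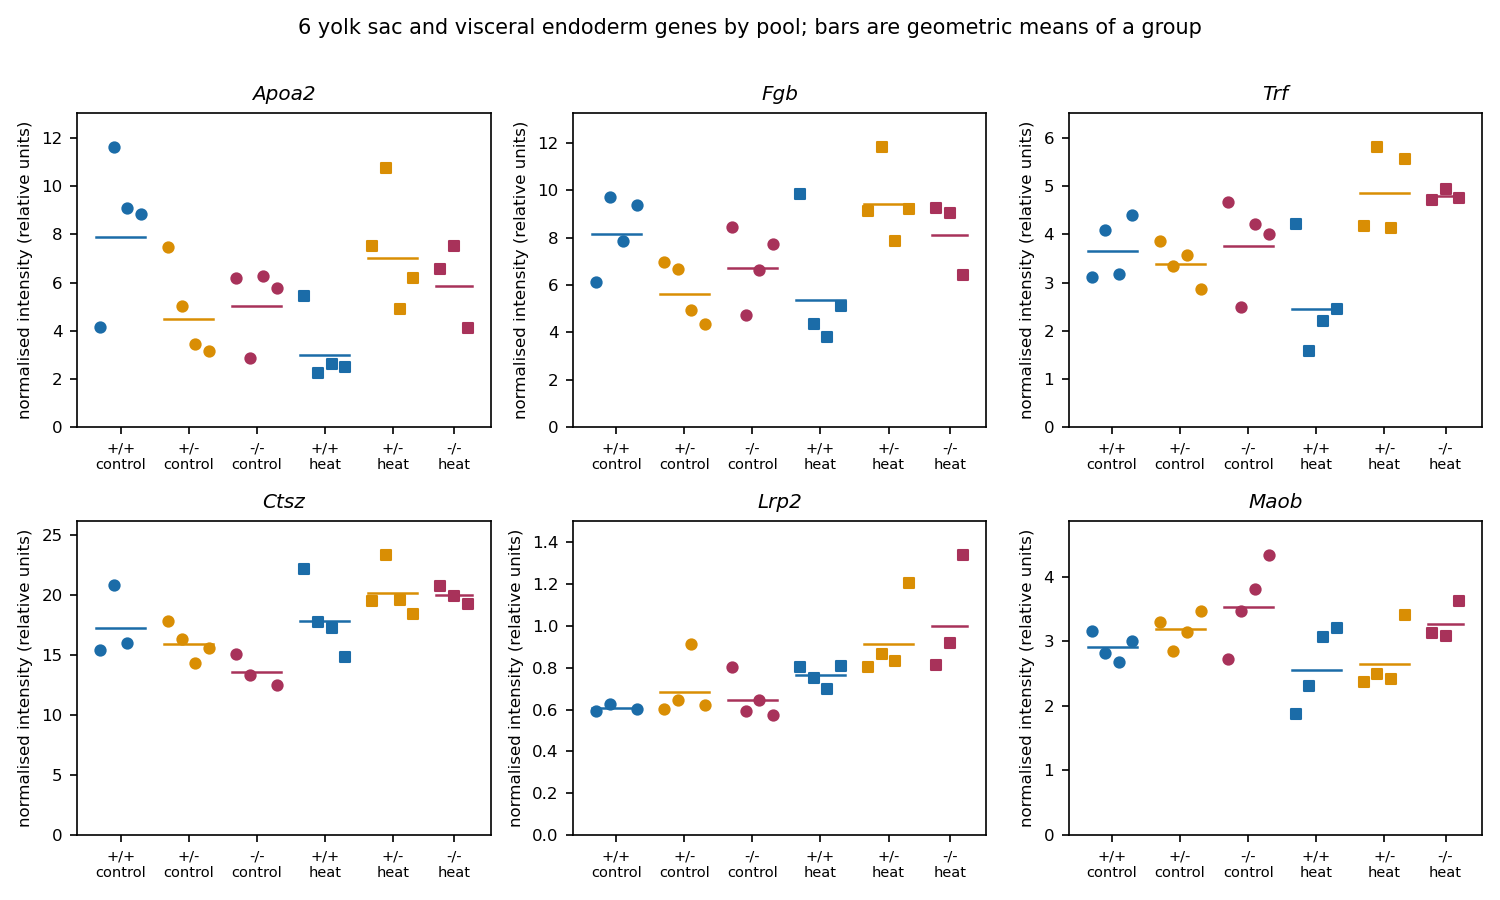
Normalised intensity (relative units, linear axis from 0) of Apoa2, Fgb, Trf, Ctsz, Lrp2 and Maob in every pool by group, with control pools as circles, heat pools as squares, 1 colour for each genotype and bars for the geometric means of the groups; points of a group run from pool A on the left, and pools with no value are left out. Wildtype heat A lies above the other 3 wildtype heat pools for the secreted proteins, and Maob has its lowest point there.

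The genes were high and low in the same pools, and by more than most genes. Within groups, the spread of a gene was taken as its residual SD around the 6 group means on the log2 scale. Its median was 0.387 for the 29 genes and 0.179 for all 12651, and 26 of the 29 were above the 75th percentile of all genes and 21 above the 90th. Compared with the 1000 genes of nearest mean level, 24 and 20 were above the same percentiles. The spread was largest for Amn (0.922), Apom (0.736) and Apoa4 (0.730), and smallest for Ctsz (0.172), Vil1 (0.232) and Maob (0.235).

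**Figure D4:**
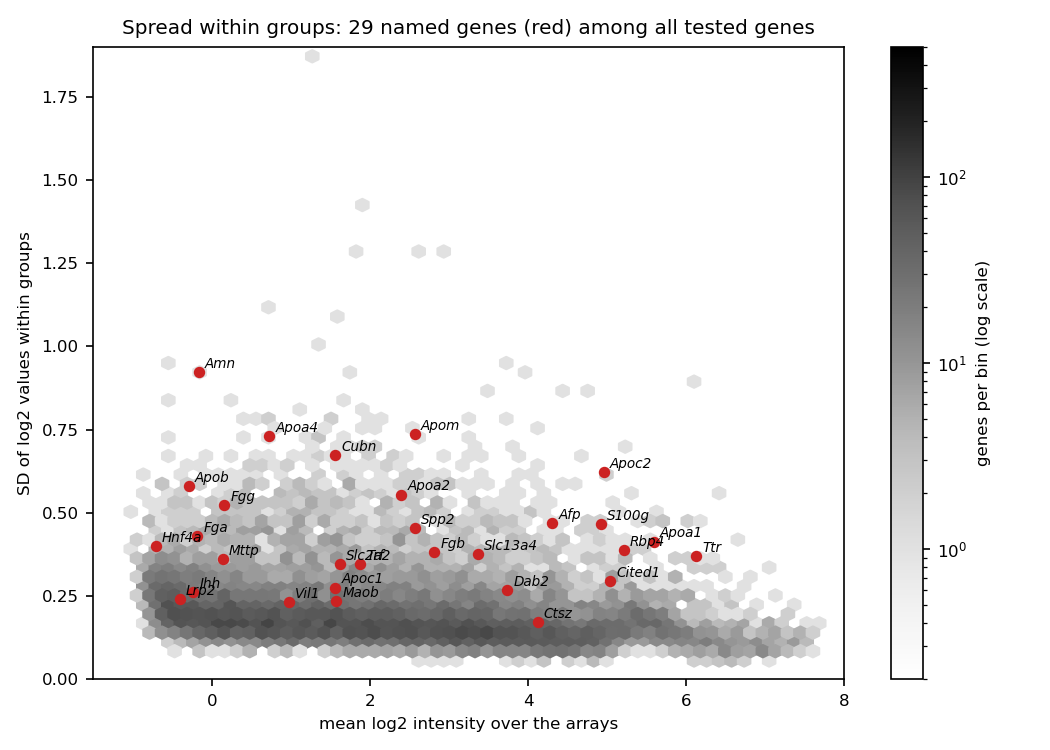
Residual SD around the 6 group means against mean log2 level for all 12651 genes (shading of hexagonal bins by the number of genes, on a log scale) and the 29 yolk sac and visceral endoderm genes (points with names). Most of the 29 lie in the upper part of the cloud at every level, with Ctsz, Vil1, Maob and Lrp2 nearest the bulk.

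Each gene's deviations from its group means were then set against the mean deviations of the other 28 genes, over 23 pools that share arrays and normalization, as a description. The correlation was 0.7 or more for 22 of 29 genes, with a median of 0.83, while 59 of the genes outside the list (0.467%) reached 0.7 against the mean of all 29. It was highest for Fgb (0.97), Apoa4 (0.96) and Apoa1 (0.95). The exceptions were Maob (-0.47), Lrp2 (-0.05), Ihh (0.39), Dab2 (0.49), Mttp (0.58), Cited1 (0.62) and Amn (0.64). Of the 7 genes named above as also known from the embryo proper, Maob, Lrp2, Ihh, Dab2 and Cited1 are among these exceptions, while Trf (0.83) and Ctsz (0.73) are not. Mttp and Amn are exceptions that are not among the 7. These 7 are examples chosen with earlier results of these data known, and a link to tissue was not tested.

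Outside the list, the genes whose deviations were most like the mean of the 29 were Lgals2 (r = 0.97 over 23 pools), Slc7a9 (0.96), Car7 (0.94), Gipc2 (0.94), 2610528J11Rik (0.93), Creb3l3 (0.93), Nostrin (0.93), Pla2g12b (0.92), Fmr1nb (0.91), Npl (0.91), Ctsh (0.91) and Rhox5 (0.91). Slc7a9 is a cystine transporter, Creb3l3 a transcription factor of liver and intestine, Ctsh a cathepsin and Rhox5 a homeobox gene. Slc7a9, Pla2g12b, Ctsh and Rhox5 are on the list of other visceral endoderm genes described next. The most negative were Pou3f3 (-0.81), a neural transcription factor, Hbb-y (-0.79), the embryonic beta-type globin, A930005H10Rik (-0.78), Zic1 (-0.77), a factor of the dorsal neural tube, and Clec2l (-0.76).

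Lists of other tissues were read in the same way. They were chosen with earlier results of these data known, so their correlations are not independent of these arrays. A list of 49 other visceral endoderm genes, of which 31 were tested, deviated with the 29 at r = 0.95 (Spearman 0.95, and 0.94 without the 2 pools farthest from the median, wildtype heat A and null control B), at 0.96 over the 12 control pools and at 0.95 over the 11 heat pools. The 15 tested neural tube genes deviated against them at -0.71 (Spearman -0.69, and -0.70 without those 2 pools), at -0.78 in control and -0.66 in heat pools. Primitive red cell genes, with 11 tested, gave -0.58, which was -0.41 without the 2 pools (-0.47 in control and -0.66 in heat pools). The 12 genes of parietal endoderm, the other endoderm outside the embryo, gave 0.38 (0.47 and 0.30), the 9 of the gut tube 0.56 (0.48 and 0.63), the 11 of amnion, allantois and extraembryonic mesoderm 0.48 (0.74 and 0.24) and Cd14, the 1 tested macrophage gene, 0.38 (0.25 and 0.46). For the other 3 lists the sign differed between the baths. The 13 genes of endothelium gave 0.07 over all pools, 0.54 in control and -0.28 in heat pools, the 13 of heart muscle -0.16 (0.08 without the 2 pools), 0.37 and -0.57, and the 7 of trophoblast and decidua -0.08, 0.24 and -0.40. The brightest reading on an array, on a log2 scale, gave -0.44 (-0.47 without the 2 pools, -0.29 in control and -0.59 in heat pools). The number of empty or coded cells gave -0.23 (-0.30 without the 2 pools, -0.35 in control and -0.19 in heat pools). These are 12 relations over the same 23 arrays, with no test, and whether shares of tissue in a pool set them was not tested.

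The promoters of the listed genes were read, whether or not a gene deviated with the others, for letters that factors of visceral endoderm and liver are known to bind. In RefSeq promoters of the mouse assembly GRCm38.p6, 26 of the 31 genes matched, with 32 promoters (Apoc1, Kng1, Maob, Trf and Ttr did not), and the 250 bases before each start were searched on both strands. The letters GTTAAT, part of the site of HNF1, were present in 6 of the 32 promoters, those of Afp, Fga, Fgb, Apoc2, Dab2 and Hnf4a, and in 6.43% of all 32851 promoters. TGTTTAC, for forkhead factors, was in 3 of the 32 (3.17% of all promoters), AGATAA, for GATA factors, in 3 (9.99%), and CAAAGTC, for HNF4, in 1, of Cited1 (3.84%). A match is a description of the letters only. The 4 secreted proteins among the 6 genes with GTTAAT are shown, each printed 5′ to 3′ in the direction of the gene up to the base before its start, with the match, or its reverse complement ATTAAC, in capitals. The stretches are chr5:90490594-90490713, plus strand, for Afp, chr3:83026073-83026152, plus strand, for Fga, chr3:83049864-83049943, minus strand, for Fgb, and chr7:19677942-19678051, minus strand, for Apoc2.
Afp: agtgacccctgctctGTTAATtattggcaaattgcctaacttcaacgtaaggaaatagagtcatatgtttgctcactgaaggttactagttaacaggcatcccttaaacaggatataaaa
Fga: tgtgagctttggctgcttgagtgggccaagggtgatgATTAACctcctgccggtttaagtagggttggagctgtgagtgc
Fgb: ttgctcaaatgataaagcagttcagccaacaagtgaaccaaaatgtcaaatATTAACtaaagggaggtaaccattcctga
Apoc2: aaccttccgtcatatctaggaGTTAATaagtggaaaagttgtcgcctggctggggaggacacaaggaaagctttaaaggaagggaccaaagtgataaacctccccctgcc
The match begins at base -105 of Afp and -89 of Apoc2, and, as the reverse complement, at -43 of Fga and -29 of Fgb, counted from the start. Within groups the 6 genes with the letters correlated with the other genes at 0.80 (Afp), 0.82 (Fga), 0.97 (Fgb), 0.93 (Apoc2), 0.78 (Hnf4a) and 0.49 (Dab2), and 0.7 or more was also reached by genes without them, such as Apoa4 and Apoa1.

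The first comparison of the design asks what the hot bath did in wildtype embryos. Since the 29 genes moved together by pool within groups (median r of 0.83), counts of them here and below are not counts of separate readings. Apoa2 fell by 1.40 ± 0.35 on the log2 scale (SE; adjusted p = 0.0308, limma with Benjamini-Hochberg adjustment over all tested probes), from 8.43 ± 3.12 (SD, n = 4) to 3.21 ± 1.51 (SD, n = 4). It was the only one of the 29 genes past the threshold of 0.05, and no gene passed in the other direction, whereas 2.35% of all genes fell and 1.25% rose. Next by p were Hnf4a, at -0.82 ± 0.26 (adjusted p = 0.0891), and Spp2, at -0.78 ± 0.29 (adjusted p = 0.149). The 29 differences had a median of -0.59, against -0.02 over all genes, and 27 were negative, with Lrp2 and Ctsz the exceptions (44.3% of all genes were positive). Under limma's normalizeQuantiles on all values, which moved the median of all probes to 0.90, the median of the 29 turned to 0.31, which is -0.59 relative to all probes; 9 genes then passed as higher and 0 as lower, and Apoa2, at -0.59, no longer passed (adjusted p = 0.146). At an unadjusted p under 0.05, 12 were lower and 0 higher (12.1% and 6.84% of all genes). Groups did not overlap for 3 genes that were lower (Fga, Hnf4a and Cited1) and 1 that was higher (Lrp2), against 7.5% and 5.76% of all genes. Lrp2, Fga and Hnf4a exceeded the level set by the filter on dim values on 11, 9 and 3 arrays. Their results may therefore not be independent of the filter.

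The wildtype result rested on which pools were counted. Without wildtype heat A, 7 genes passed, all lower with heat (Apoa1, Apoa2, Apoc2, Apom, Trf, Ttr and Fgb), and the median was -0.85. Here and below, genes that pass with a pool left out are given without the share of all genes in that fit. Such counts are therefore not a result about these genes beside others. Apoa2 itself was lost on leaving out wildtype control B, C or D or wildtype heat B, C or D, with an adjusted p from 0.0702 to 0.0960 and a difference from -1.34 to -1.21. Hnf4a passed as well without null heat C.

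In heterozygous embryos the differences with heat ran the other way. None of the 29 genes passed the threshold in limma's fit, where 0.869% of all genes rose and 2.21% fell, and 15 were higher and 0 lower at an unadjusted p under 0.05 (7% and 11% of all genes). The smallest p-values belonged to Afp, at 1.03 ± 0.30 (adjusted p = 0.0717), Spp2, at 0.90 ± 0.29 (adjusted p = 0.109), and Fgb, at 0.74 ± 0.25 (adjusted p = 0.12). Afp had group means of 15.2 ± 3.81 (SD, n = 4) and 31.6 ± 10.99 (SD, n = 4). The median difference was 0.52, against -0.004 over all genes, and 27 were positive, with Maob and Cited1 the exceptions (49.3% of all genes were positive). Heat pools lay above control pools without overlap for 6 genes (Apoa4, Mttp, Afp, Trf, Fgb and Ctsz; 4.08% of all genes) and below them for 0 (6.8%). Fgb passed without wildtype heat A and Afp without wildtype heat B or heterozygous heat D.

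In null embryos Ctsz rose with heat by 0.55 ± 0.14 (adjusted p = 0.026) and Lrp2 by 0.62 ± 0.18 (adjusted p = 0.0455), where 3.51% of all genes rose. Ctsz went from 13.6 ± 1.29 (SD, n = 3) to 19.98 ± 0.762 (SD, n = 3) and Lrp2 from 0.654 ± 0.104 (SD, n = 4) to 1.02 ± 0.281 (SD, n = 3). Fgg, next by p, stood at 0.91 ± 0.36 (adjusted p = 0.122). None of the 29 fell (2.83% of all genes; 0 lower and 3 higher at an unadjusted p under 0.05, against 13.2% and 13.7% of all genes). The median was 0.38, against -0.01 over all genes, with 23 differences positive (48.5% of all genes were). Groups did not overlap for Lrp2, Trf and Ctsz, all higher with heat (11.1% of all genes, and 13.4% lower). Both called genes are known from other tissues as well. Lrp2 exceeded the level set by the filter on dim values on 11 arrays, and Ctsz on 21. That level is taken on each array, and most dim control cells are empty, so a gene can pass through its heat values. The rise of Lrp2 may therefore not be independent of the filter. Ctsz was lost without null control B or D or null heat A or B (adjusted p from 0.0617 to 0.0929). Lrp2 was lost without any of 14 pools (adjusted p from 0.0505 to 0.148), which were null control B, C and D, null heat B and C, wildtype control A, B and D, all wildtype heat pools and heterozygous heat B and C. Lrp2 was lost as well with the values as deposited (0.55, adjusted p = 0.0966), median centring (0.47, 0.109), a floor at the 20th percentile (0.52, 0.0583), the arrays of the null groups alone (adjusted p = 0.105) and the pool letter as a block (adjusted p = 0.0549).

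**Figure D5:**
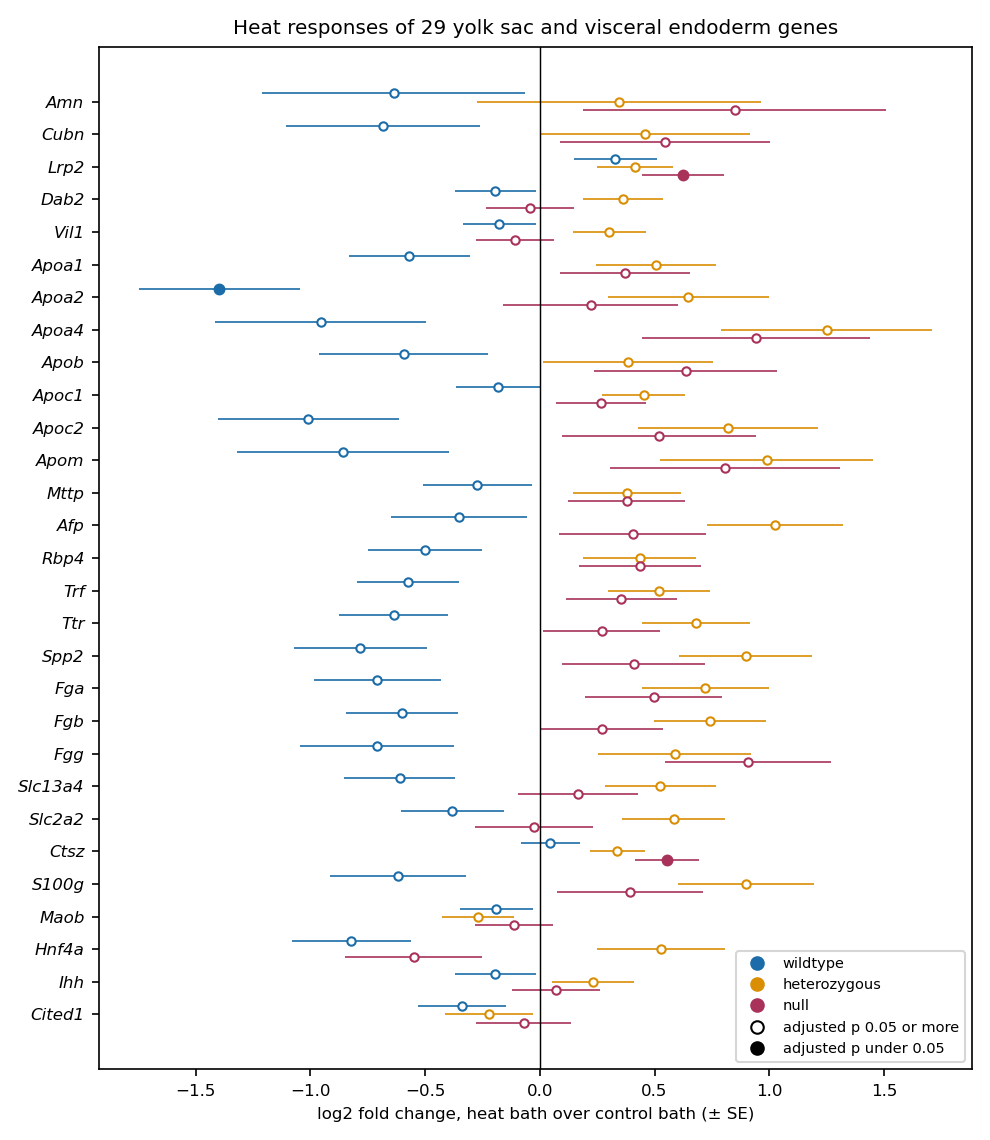
Heat against control difference (log2, with SE) of each of the 29 genes in wildtype, heterozygous and null embryos. With the normalization used, most wildtype values lie below 0 (27 of 29; 7 under normalizeQuantiles on all values) and most heterozygous and null values above it; Apoa2 in wildtype and Ctsz and Lrp2 in null embryos are past the threshold.

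Summed levels of other lists are given beside these differences, and their part in them was not tested. The summed intensity of the 15 neural tube genes was 85.8 to 96.2 in wildtype control and 75.9 to 84.3 in wildtype heat pools, 85.2 to 92.1 and 78.8 to 85.9 in heterozygous, and 92.1 to 99.5 and 83.1 to 92.4 in null pools, so that the ranges overlapped in heterozygous and null pools. Past the threshold were 0 of the 15 in wildtype and null embryos and 2, Neurog1 and Neurog2, in heterozygous embryos, both lower with heat (2.21% of all genes). The 31 other visceral endoderm genes summed, over the 23 with all values, to 144 to 170 and 131 to 175 in wildtype, 136 to 163 and 162 to 205 in heterozygous, and 123 to 165 and 149 to 195 in null pools. Of the 31, 1 passed in wildtype, 1 in heterozygous and 0 in null embryos. Glrx, glutaredoxin, fell with heat in wildtype embryos by 0.40 ± 0.08 (adjusted p = 0.0095; 2.35% of all genes fell), and Aqp8, a water channel, rose in heterozygous embryos by 1.21 ± 0.27 (adjusted p = 0.0183; 0.869% of all genes rose). The median difference of that list was -0.22 in wildtype, 0.23 in heterozygous and 0.25 in null embryos. Parietal endoderm genes summed to 91.02 to 97.8 and 99.5 to 107 in wildtype, 97.95 to 105 and 97.8 to 110 in heterozygous, and 97.9 to 102 and 103 to 111 in null pools, overlapping in heterozygous pools. Of the 12, Fst alone passed, as higher with heat in wildtype embryos (1.25% of all genes).

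The genotypes were compared within the control bath next. None of the 29 genes passed between null and wildtype (3.49% of all genes were higher and 5.01% lower), and 0 were higher and 4 lower at an unadjusted p under 0.05 (14.6% and 12.6%). Fgg was at -0.99 ± 0.33 (adjusted p = 0.0666), Ctsz at -0.34 ± 0.14 (adjusted p = 0.122) and Amn, partly at the floor, at -1.39 ± 0.62 (adjusted p = 0.16). The median was -0.27, and groups did not overlap for Amn, Fgg and Ctsz, all lower in null pools (11.7% of all genes, and 14.7% higher). Fgg passed without null control A. Of the other visceral endoderm list, Gata6, an endoderm transcription factor, was lower in null embryos by -0.68 ± 0.20 (adjusted p = 0.0381), and Cth, an enzyme of cysteine synthesis, by -0.27 ± 0.08 (adjusted p = 0.0453).

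Between heterozygous and wildtype control pools no gene of the 29 passed, nor any gene at all (0%), while 5 of the 29 were lower and 0 higher at an unadjusted p under 0.05 (2.09% and 4.13% of all genes). Apoa2 was at -0.82 ± 0.35 (adjusted p = 0.822), Hnf4a at -0.64 ± 0.28 (adjusted p = 0.822) and Ttr at -0.53 ± 0.24 (adjusted p = 0.822), and the median was -0.36. Groups did not overlap for Hnf4a alone, lower in heterozygous pools (1.32% of all genes, and 2.85% higher), with no value in heterozygous control D and C at the floor. Between null and heterozygous control pools 0 passed (0.0395% of all genes) and 0 had an unadjusted p under 0.05 (7.75% of all genes were higher and 10.5% lower), with a median of 0.10. Hnf4a alone did not overlap, higher in null pools (3.29% of all genes, and 4.13% lower), with no value for it in null control B, the lowest-scoring control pool, or in heterozygous control D. The smallest p-values there were those of Hnf4a, at 0.58 ± 0.30 (adjusted p = 0.302), Fgg, at -0.63 ± 0.33 (adjusted p = 0.311), and Ctsz, at -0.23 ± 0.13 (adjusted p = 0.34).

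In the hot bath all 29 genes were higher in null than in wildtype pools, with a median of 0.53, where 56.5% of all genes were higher, with a median of 0.04. None of the 29 passed the threshold (0.245% of all genes were higher and 0.245% lower), with 10 higher and 0 lower at an unadjusted p under 0.05 (14.3% and 5.02% of all genes). Trf, at 0.97 ± 0.24, had an adjusted p of 0.0698, with levels of 2.62 ± 1.13 (SD, n = 4) and 4.80 ± 0.118 (SD, n = 3). Fga was at 0.998 ± 0.30 (adjusted p = 0.106) and Spp2 at 0.92 ± 0.31 (adjusted p = 0.14). Trf passed without wildtype heat A, null heat A or null control B. Null pools lay above wildtype pools without overlap for Lrp2, Trf and Fga (6.49% of all genes, and 4.27% lower). Lrp2 exceeded the level set by the filter on dim values on 11 arrays and Fga on 9. Their results may therefore not be independent of the filter.

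All 29 were also higher in heterozygous than in wildtype heat pools, against the same 4 wildtype arrays (59.8% of all genes were higher, with a median of 0.04). The median was 0.74, 0 passed (0.0395% of all genes were higher and 0.103% lower), and 21 were higher and 0 lower at an unadjusted p under 0.05 (6.4% and 3.19% of all genes). Trf was at 0.99 ± 0.22 (adjusted p = 0.0972), Spp2 at 1.10 ± 0.29 (adjusted p = 0.14) and Fga at 0.97 ± 0.28 (adjusted p = 0.16), and only Fga had groups that did not overlap (2.76% of all genes, and 1.53% lower). Fga exceeded the level set by the filter on dim values on 9 arrays, so this result too may not be independent of the filter. Without wildtype heat A, Apom and Trf passed between null and wildtype, and Apom, Trf and Fgb between heterozygous and wildtype heat pools. Null and heterozygous heat pools differed by a median of -0.19, with 0 past the threshold (0.0079% of all genes), 0 at an unadjusted p under 0.05 (2.88% of all genes higher and 1.72% lower), overlapping groups for all 29 (2.1% and 2.34% of all genes did not overlap), and Maob, at 0.31 ± 0.17 (adjusted p = 0.918), Hnf4a, at -0.50 ± 0.28 (adjusted p = 0.918), and Ttr, at -0.37 ± 0.26 (adjusted p = 0.918), first by p.

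The difference between heat responses was tested directly. The heterozygous response exceeded the wildtype response by a median of 1.09, with 28 of 29 values positive (53.7% of all genes were, with a median of 0.02). Of the 29, 0 passed (0% of all genes did), and 20 were higher and 0 lower at an unadjusted p under 0.05 (2.74% and 2.43% of all genes). Apoa2 was at 2.04 ± 0.50 (adjusted p = 0.32), Spp2 at 1.68 ± 0.41 (adjusted p = 0.32) and Ttr at 1.32 ± 0.33 (adjusted p = 0.334).

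The null response exceeded the wildtype response by a median of 0.91, with all 29 values positive (52.1% of all genes were, with a median of 0.02). None of the 29 was past the threshold (0.395% of all genes were higher and 0.285% lower), and 16 were higher and 0 lower at an unadjusted p under 0.05 (13.4% and 8.88% of all genes). Fgg was at 1.62 ± 0.49 (adjusted p = 0.1), Apoa2 at 1.62 ± 0.52 (adjusted p = 0.113) and Fga at 1.21 ± 0.41 (adjusted p = 0.126). Both differences contain the same wildtype arrays, so their likeness is in part built in. In the other visceral endoderm list Glrx (0.57 ± 0.12, adjusted p = 0.0279) and Ambp, a plasma protein precursor (1.01 ± 0.24, adjusted p = 0.0419), passed for null minus wildtype. Without wildtype heat A, Apoc2, Apom and Trf passed there too. Null and heterozygous responses differed by a median of -0.19, with 0 past the threshold (0.0395% of all genes) and 0 higher and 1 lower at an unadjusted p under 0.05 (6.21% and 6.55% of all genes), which was Hnf4a, at -1.08 ± 0.41 (adjusted p = 0.307). Slc2a2, at -0.61 ± 0.34 (adjusted p = 0.396), and Vil1, at -0.41 ± 0.23 (adjusted p = 0.399), followed. Hnf4a exceeded the level set by the filter on dim values on 3 arrays, the fewest allowed. It had no value in heterozygous control D or null control B, and heterozygous control C was at the floor. Its difference may therefore not be independent of the filter.

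By role, the median difference with heat in wildtype embryos was -0.73 for the 8 apolipoproteins and lipoprotein assembly genes, -0.57 for the 5 serum carriers and other secreted proteins, -0.71 for the 3 fibrinogen chains, -0.38 for the 5 transporters and enzymes, -0.34 for the 3 regulators and signals and -0.19 for the 5 genes of uptake and brush border. In heterozygous embryos it was 0.58, 0.68, 0.72, 0.52, 0.23 and 0.36, and in null embryos 0.45, 0.40, 0.50, 0.17, -0.07 and 0.55, in the same order. Pool A had the highest score of the wildtype heat group in each of the 6 roles, from 0.04 among the regulators and signals to 0.61 among the apolipoproteins.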

How the data were processed

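RNA of 23 pools of whole embryos was read on CodeLink arrays, 12 control and 11 heat. The deposited values are linear intensities per probe, in the authors' scale; how they were scanned, corrected and normalized is not given in the sources. Codes for missing values (129 to 203 per heat array) and empty cells (7576 to 11666 per control array) were set to missing. The empty cells are not random, since 95.2% of the control cells of probes with a heat median under 0.25 are empty, against 0.987% at medians of 2 to 100. Values at or below an array's 5th percentile of positive values were set to it (0.308 to 0.512 in control, 0.0759 to 0.110 in heat arrays), log2 was taken, and arrays were quantile normalized on a curve from 18702 probes that no array lacked, whose medians had spanned 0.336. Each intensity printed is such a normalized value. A fold change is thus one of floored intensities.

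Of 36227 probes, 21979 were tested. These had 3 or more values per group and exceeded the 40th percentile of the array on 3 or more arrays. Lrp2 exceeded it on 11 arrays, Fga on 9 and Hnf4a on 3. As dim cells are mostly empty in control arrays, this filter is not the same in both baths. The platform annotation in GEO gave the symbols, which were updated through RefSeq gene IDs (assembly GRCm38.p6): 21615 probes have 1 symbol (21487 matched), 681 several and 13931 none listed. A gene is represented by its tested probe of highest mean level. Slc13a4 has 2 tested probes. limma 3.58.1 in R 4.3.3 (lmFit and eBayes with an intensity trend, two-sided) fitted 6 group means over all 23 arrays, with Benjamini-Hochberg adjustment over the tested probes and 0.05 as threshold; the step was tested on simulated data. Errors of differences are SEs. As litters are not named, p-values reflect only how these pools differ, and their number limits the precision.

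All 29 tested genes could be named with levels. Differences with a p are given for genes past the threshold or, under 3 of these, the 3 of smallest p, for up to 4 called genes of other lists, and correlations for the 12 most like and 5 most unlike genes. Genes and lists were chosen with earlier results of these data known. The null heat group has 3 pools here, and a 4th was not analysed here. Figures were drawn with matplotlib 3.10.9. The alternatives tried were other normalizations, floors, filters, probe choices, sets of arrays and limma settings, the pool letter as a block, the list without 7 genes of the embryo proper, and leaving out each pool.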

Additional observations from a re-analysis of the deposited data

Results flagged for a closer look

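Within groups of 4 pools, a pool whose log2 gap to its nearest neighbour takes up more of the group's range than Dixon's 95% critical value stood apart for 9 of 136 combinations of gene and group. Chance gives about 5% of them. No such pool was found for the score over the 29 genes.

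In wildtype heat A, Apoa4 was at 2.84 against 0.760 to 0.849 in the other pools (a gap of 0.916 of the range), and Ttr at 91.4 against 44.9 to 49.2 (0.872). Null control B was low for Apoa2, at 2.86 against 5.77 to 6.27 (0.894), and for Spp2, at 3.54 against 6.34 to 7.02 (0.852). Heterozygous heat B was high for Apoa4, at 5.24 against 2.12 to 2.36 (0.881). These pools are also the extremes of their groups for most of the other genes.

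Other pools stood apart for a single gene. Mttp was low in wildtype control C, at 0.702 against 1.34 to 1.42 (0.914), and S100g in wildtype control A, at 28.3 against 38.4 to 40.1 (0.878). Vil1 was high in heterozygous control A, at 2.0 against 1.70 to 1.74 (0.839), and Maob in heterozygous heat D, at 3.41 against 2.37 to 2.50 (0.854).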

How the results depend on the processing

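Counts and medians were recomputed under 40 alternatives, 23 of which leave out 1 pool, single genes under 37 to 40, as filters drop some, and pool scores under the 17 that keep all pools. The number of genes past the threshold of the 29 changed as follows. The share of all probes past it under the same alternative is not given beside these counts. They therefore do not set the 29 genes apart from other genes. With heat in wildtype embryos it was 8 with the values as deposited, 3 with median centring, 2 with array weights, and from 0 to 7 with a pool left out, all lower, but 9 with normalizeQuantiles on all values, all higher and without Apoa2. With heat in heterozygous embryos it was 27, all higher, with normalizeQuantiles and from 0 to 1 with a pool left out. With heat in null embryos it was 1 with the values as deposited, median centring, a floor at the 20th percentile, a stricter filter on dim probes or the arrays of the groups compared alone (each time Ctsz, with Lrp2 lost, or not tested under the stricter filter), 25 with normalizeQuantiles, all higher, and from 0 to 2 with a pool left out. It was 0 with values on all arrays only or without 7 genes of the embryo proper. Both of these alternatives leave out Ctsz and Lrp2, so the called genes were not tested there. For null against wildtype it was 4 with only the arrays compared, 5 with array weights and from 0 to 1 with a pool left out in the control bath, and 4 with the values as deposited and from 0 to 2 with a pool left out in the hot bath. For heterozygous against wildtype heat pools it was from 0 to 3 with a pool left out, and for the null minus wildtype response 2 with the values as deposited and from 0 to 3 with a pool left out.

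NormalizeQuantiles treats the empty cells of dim and bright control probes as random and moved the median of all probes to 0.90 (wildtype), 0.85 (heterozygous) and 0.94 (null) for heat against control. The median of the 29 genes became 0.31, 1.34 and 1.08, which is -0.59, 0.48 and 0.13 relative to all probes; Hnf4a (0.31) and Spp2 (0.017) reversed in wildtype embryos, and pool scores spanned 2.22. Under every other alternative the 3 medians kept their direction. Pools of one letter were not treated as pairs in the main fit. Of 55 same-letter pairs of pools in different groups, 26 had deviations that correlate above 0.1 (from -0.35 to 0.68). Their median was 0.08, against -0.05 for pairs of different letters, and what pools of one letter share was not tested. With the letter as a replicate block the counts were 2 (wildtype heat against control), 1 (null heat against control), 2 (null against wildtype, control) and 1 (null against wildtype, heat), and the other counts stayed at 0.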

Other observations

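F2, prothrombin, which was too dim to test, was read in 4 of 12 control pools. Its values were 0.408 and 0.426 in wildtype control B and D and 0.286 and 0.246 in heterozygous control A and B, with wildtype control B and heterozygous control A at the floor. In heat pools it measured 0.205, 0.227, 0.386 and 0.359 in wildtype, 0.445, 0.659, 0.347 and 0.304 in heterozygous and 0.326, 0.430 and 0.457 in null pools. The highest F2 value was in heterozygous heat B, the pool that is also highest for 14 of the 29 tested genes.

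The other tested probe of the sulfate transporter Slc13a4 gave a difference with heat of -0.36 ± 0.15 in wildtype, 0.27 ± 0.15 in heterozygous and -0.06 ± 0.17 in null embryos, against -0.61 ± 0.24, 0.52 ± 0.24 and 0.17 ± 0.26 on the brighter probe. The 2 probes have the same sign in wildtype and heterozygous embryos and opposite signs in null embryos, and none of these differences passed the threshold in limma's fit.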
